A study of Oryza sativa with 18 samples.

Results

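Transcripts of 4 cell division genes were followed in rice leaf sheath fed on by the brown planthopper, a phloem-sucking insect pest. The genes were the B-type cyclin CYCB2 (LOC4342121), the A-type cyclin CYCA3-2 (LOC4352642), the kinesin KIN10A (LOC4331094, also listed as STD1) and the histone H2B.10 (LOC4324495). They were selected on measured values of these arrays, so their levels and differences, and any threshold they pass, are a description and not a test. A platform annotation assigned 5 probe sets to these 4 genes, out of 57381 probe sets and 17905 genes on the array. CYCB2 had 2 probe sets and the other genes 1 each, none of them also assigned to another gene. All 5 passed the filter on dim values, as did 32684 probe sets in all. A RefSeq gene table places CYCB2 on rice chromosome 6, CYCA3-2 on chromosome 12, KIN10A on chromosome 2 and H2B.10 on chromosome 1.

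Total RNA was hybridised to 18 Affymetrix rice arrays, 3 for each of 6 groups. One line, NIL-Bph6, was near-isogenic, carried Bph6, a gene for resistance to the insect, and was labelled resistant. The other was NIL-Bph6-RNAi, labelled susceptible, which by its name is the same line with an RNAi construct. What promoter drives that construct, and how many transformed plants the line goes back to, is not stated in the labels used. Sheaths of seedlings at the four-leaf stage, about 3 weeks old and grown in a chamber, were taken at 0 h without feeding and after 6 h and 48 h of feeding. Replicates are labelled biological. Titles and source names gave these groups, whereas description fields named other lines and times and were not followed. Unfed plants of the later times were not analysed here, so a change from 0 h also holds whatever else differed between those times. Bph6 is not among the genes analysed here, so the labels were not checked against it.

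Cyclins are regulatory subunits that switch on cyclin-dependent kinases, and their transcripts rise and fall with the division cycle. B-type cyclins act at the entry into mitosis, and plant cyclins of the A3 class have been linked to DNA synthesis. Kinesins are motor proteins that move along microtubules, and several plant kinesins work in the spindle or in the phragmoplast, the structure that builds the new cell wall. Histone H2B is one of the core histones around which DNA is wound, and most core histone transcripts are made while DNA is copied. In a grass leaf, divisions are concentrated at the base of the growing blade and sheath. In bulk tissue, fewer cells of a type and less RNA per cell cannot be told apart.

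Array medians lay between 5.67 and 6.02 on the log2 scale, and 17 of 18 arrays correlated best with another array of their own group. Green tissue was checked with 10 probe sets of photosynthesis genes, of which 8 passed the filter. CAB2R, a chlorophyll-binding protein gene, had medians of 15.08 and 14.59 with its 2 probe sets. No marker of sheath itself was among them, so the sheath label was not checked. Of 11 probe sets for knotted-like homeobox genes 5 passed. The meristem gene OSH1 did not pass with either of its probe sets, the higher of which peaked at 5.36, under the overall median of 5.779. OSH43 passed with 1 probe set, which peaked at 6.95 and was above that median on 5 of 18 arrays, while its other did not pass. The brightest in the list belonged to HOS58 and HOS59. Whether meristem was present was not decided by these values. The 3′ minus 5′ signal of control transcripts, which follows RNA quality, was lowest in NIL-Bph6 at 0 h at 1.78 ± 0.42 (SD, n = 3) and highest in NIL-Bph6-RNAi at 0 h at 2.39 ± 0.19. The remaining 4 group means ran from 1.99 to 2.16.

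Some arrays stood apart from the rest of their group. In NIL-Bph6-RNAi replicate 1 at 0 h and replicate 3 at 6 h were low for CYCB2, CYCA3-2 and KIN10A, and replicate 2 at 48 h was high for CYCB2 and KIN10A. KIN10A was as far below its mean on replicate 1 at 48 h. In NIL-Bph6 replicate 3 at 48 h was low for H2B.10. For the differences that moved most, the lowest and highest value on leaving out 1 array at a time is given, with the array left out.

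CYCB2 is described first by its probe set 2, whose group means were the higher of its pair. In NIL-Bph6 its log2 signal was 6.78, 7.98 and 8.29 at 0 h, 10.57, 9.99 and 9.61 at 6 h, and 10.30, 9.40 and 10.47 at 48 h. Every array at 6 h and at 48 h thus lay above every array at 0 h. The share of all probe sets without such overlap is not given, so overlap of members is a description only, here and below. In NIL-Bph6-RNAi the same probe set read 7.60, 9.47 and 9.94 at 0 h, 9.35, 10.37 and 8.05 at 6 h, and 5.49, 7.93 and 5.51 at 48 h. The 48 h arrays overlapped with those at 0 h through replicate 1 at 0 h, and they lay below all those at 6 h by a margin of 0.12. Across lines, the 48 h arrays of NIL-Bph6 were all above those of NIL-Bph6-RNAi.

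CYCB2 probe set 1, whose name marks probes that may also bind other transcripts, gave 5.61, 6.22 and 6.79 in NIL-Bph6 at 0 h, 8.59, 7.88 and 7.74 at 6 h, and 8.50, 7.67 and 8.40 at 48 h. In NIL-Bph6-RNAi it gave 5.17, 8.13 and 7.90 at 0 h, 7.89, 8.14 and 6.32 at 6 h, and 4.87, 6.21 and 4.65 at 48 h. In NIL-Bph6 its fed arrays again lay above the unfed ones, and over 18 arrays the pair of CYCB2 probe sets correlated at r = 0.969. At 48 h 2 of 3 NIL-Bph6-RNAi arrays lay under the overall median for each CYCB2 probe set, where values are imprecise.

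CYCA3-2 had a log2 signal of 7.12, 6.51 and 7.28 in NIL-Bph6 at 0 h, 8.71, 8.13 and 8.03 at 6 h, and 8.77, 8.28 and 8.80 at 48 h. As for CYCB2, no fed array of this line overlapped with the unfed ones. In NIL-Bph6-RNAi its values were 7.18, 8.05 and 8.09 at 0 h, 7.80, 8.41 and 7.19 at 6 h, and 7.08, 7.08 and 7.17 at 48 h. The 48 h arrays lay below all others of that line, though by only 0.01 at 0 h and 0.02 at 6 h.

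KIN10A read 6.17, 7.20 and 7.53 in NIL-Bph6 at 0 h, 9.31, 9.13 and 8.45 at 6 h, and 9.49, 8.74 and 9.30 at 48 h. Its unfed and fed arrays did not overlap in this line. In NIL-Bph6-RNAi it read 6.85, 8.81 and 8.96 at 0 h, 8.77, 9.0 and 7.12 at 6 h, and 2.97, 7.36 and 5.07 at 48 h. The last group had the widest spread of any member, with an SD of 2.20, and its replicate 2 overlapped with the 0 h and 6 h arrays.

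H2B.10 gave 9.16, 8.96 and 10.12 in NIL-Bph6 at 0 h, 11, 10.91 and 11.13 at 6 h, and 12.07, 11.77 and 10.60 at 48 h. In NIL-Bph6-RNAi it stayed between 7.91 and 9.08 on all 9 arrays: 7.91, 8.53 and 9.08 at 0 h, 8.62, 8.87 and 8.51 at 6 h, and 8.38, 8.27 and 8.62 at 48 h. H2B.10 was the member with the least spread over time in that line. Its lines also did not overlap at 6 h, where those of the other members did.

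**Figure D1:**
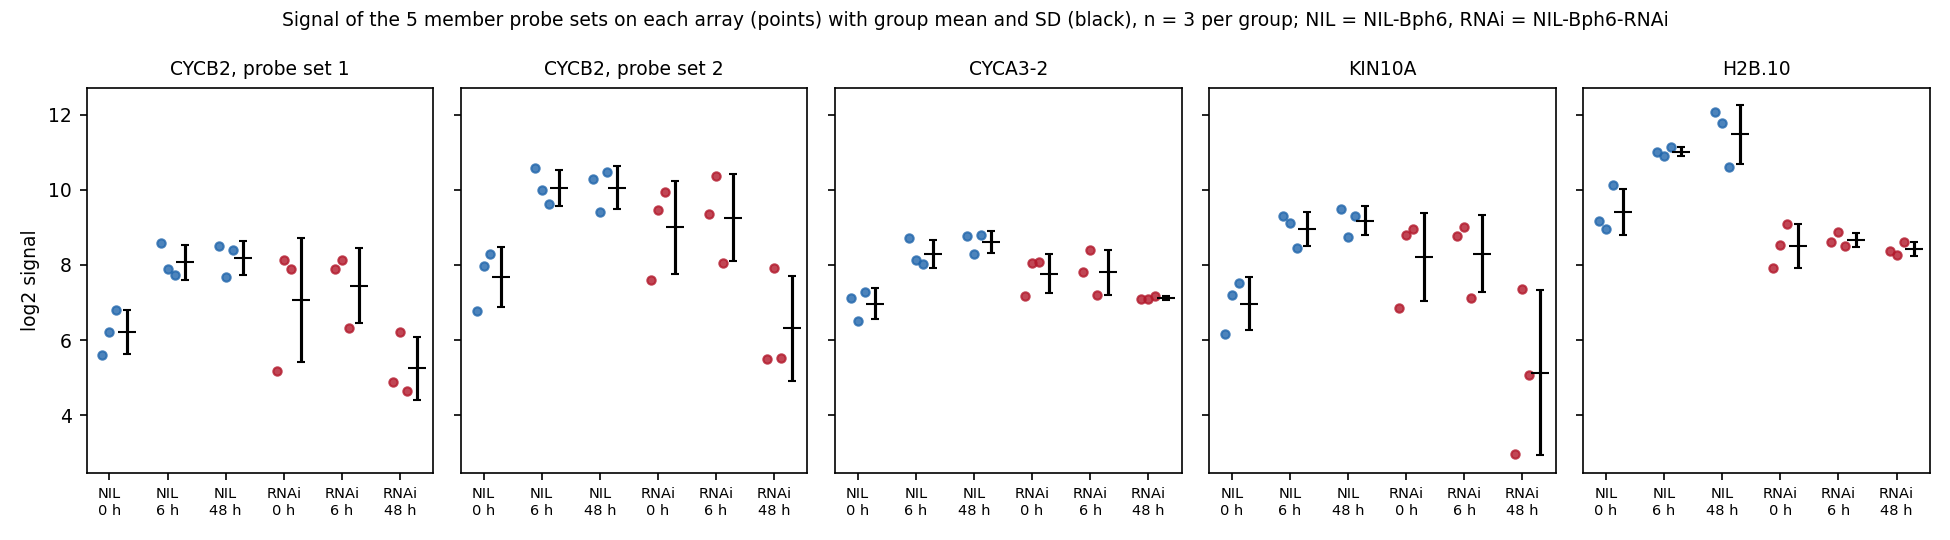
Log2 signal of the 5 member probe sets (vertical axis) in the 6 groups (horizontal axis), with a point per array and the group mean and SD in black (n = 3). All NIL-Bph6 arrays at 6 h and 48 h lie above the 0 h arrays of that line for each probe set, and levels of different probe sets are not comparable.

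Ordered by group mean, all 5 probe sets were highest in NIL-Bph6 at 48 h and next highest in NIL-Bph6 at 6 h, and the arrays of these neighbours in the order overlapped for all 5. For CYCB2, CYCA3-2 and KIN10A the order went on with NIL-Bph6-RNAi at 6 h and then at 0 h, again with overlap between neighbours. CYCB2 and KIN10A were lowest in NIL-Bph6-RNAi at 48 h, after NIL-Bph6 at 0 h, which overlapped with it. For CYCA3-2 the step from NIL-Bph6-RNAi at 0 h down to 48 h had no overlap, by the 0.01 given above, and its lowest group was NIL-Bph6 at 0 h, at 6.97 ± 0.41 (SD, n = 3) against 7.11 ± 0.05 in NIL-Bph6-RNAi at 48 h. H2B.10 had another order, with the means of all NIL-Bph6 groups above those of all NIL-Bph6-RNAi groups. Its steps from NIL-Bph6 at 6 h to 0 h and on to NIL-Bph6-RNAi at 6 h were without overlap, and the remaining NIL-Bph6-RNAi groups overlapped.

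Before feeding, the NIL-Bph6 means of the cyclins and the kinesin were below those of the other line and that of H2B.10 was above. The difference was -0.86 ± 0.67 and -1.32 ± 0.71 for the CYCB2 probe sets (± SE of limma's fit over all 18 arrays, 3 arrays a group, here and for all differences below). For CYCA3-2 it was -0.80 ± 0.31, for KIN10A -1.24 ± 0.82 and for H2B.10 0.90 ± 0.35, and the lines overlapped for all 5. A probe set was called at an adjusted p under 0.05, over all probe sets tested and separately for each comparison. Members were chosen on these values, so their calls, here and below, are a description. Their share may exceed that of all probe sets for that reason alone, and it counts both CYCB2 probe sets. At 0 h 0 of 5 member probe sets were called in either direction, beside 0.863% of all probe sets called higher and 0.545% lower. The CYCB2 differences were -1.81 and -2.02 without replicate 1 of NIL-Bph6-RNAi, against -0.33 for probe set 1 without its replicate 2 and -0.85 for probe set 2 without its replicate 3. CYCA3-2 ranged from -1.10 without that replicate 1 to -0.57 without NIL-Bph6 replicate 2, and KIN10A from -1.92 to -0.84, the latter without NIL-Bph6 replicate 1. H2B.10 ranged from 0.55 without NIL-Bph6 replicate 3 to 1.19 without NIL-Bph6-RNAi replicate 3.

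At 6 h the differences between the lines were all positive. H2B.10 stood 2.35 ± 0.35 higher in NIL-Bph6, a 5.10-fold difference in signal. The others differed by 0.49 ± 0.31 for CYCA3-2, 0.62 ± 0.67 and 0.80 ± 0.71 for CYCB2, and 0.67 ± 0.82 for KIN10A, and their lines overlapped. Of 5 member probe sets 1, that of H2B.10, was called higher, beside 0.315% of all probe sets called higher and 0.545% lower. Without replicate 3 of NIL-Bph6-RNAi the CYCB2 differences at 6 h became 0.05 and 0.19, that of CYCA3-2 0.18, that of KIN10A 0.08 and that of H2B.10 2.27. Without replicate 2 of that line they were 0.96 and 1.35, 0.79, 1.02 and 2.45.

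At 48 h all 5 probe sets were higher on every NIL-Bph6 array than on every NIL-Bph6-RNAi array. KIN10A differed by 4.05 ± 0.82, CYCB2 by 3.74 ± 0.71 and 2.94 ± 0.67, H2B.10 by 3.06 ± 0.35 and CYCA3-2 by 1.51 ± 0.31. All 5 were called higher, beside 8.81% of all probe sets called higher and 4.81% lower. KIN10A ranged from 2.97 without NIL-Bph6-RNAi replicate 1 to 5.16 without replicate 2, and since 2 of its 3 arrays there lay under the overall median no fold is given. CYCB2 ranged from 3.33 to 4.55 with probe set 2 and from 2.65 to 3.43 with probe set 1, both highest without that replicate 2. H2B.10 ranged from 2.76 without NIL-Bph6 replicate 1 to 3.50 without its replicate 3, and CYCA3-2 from 1.41 to 1.67. The median over the 5 was 3.06, and over all probe sets tested 0.00.

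**Figure D2:**
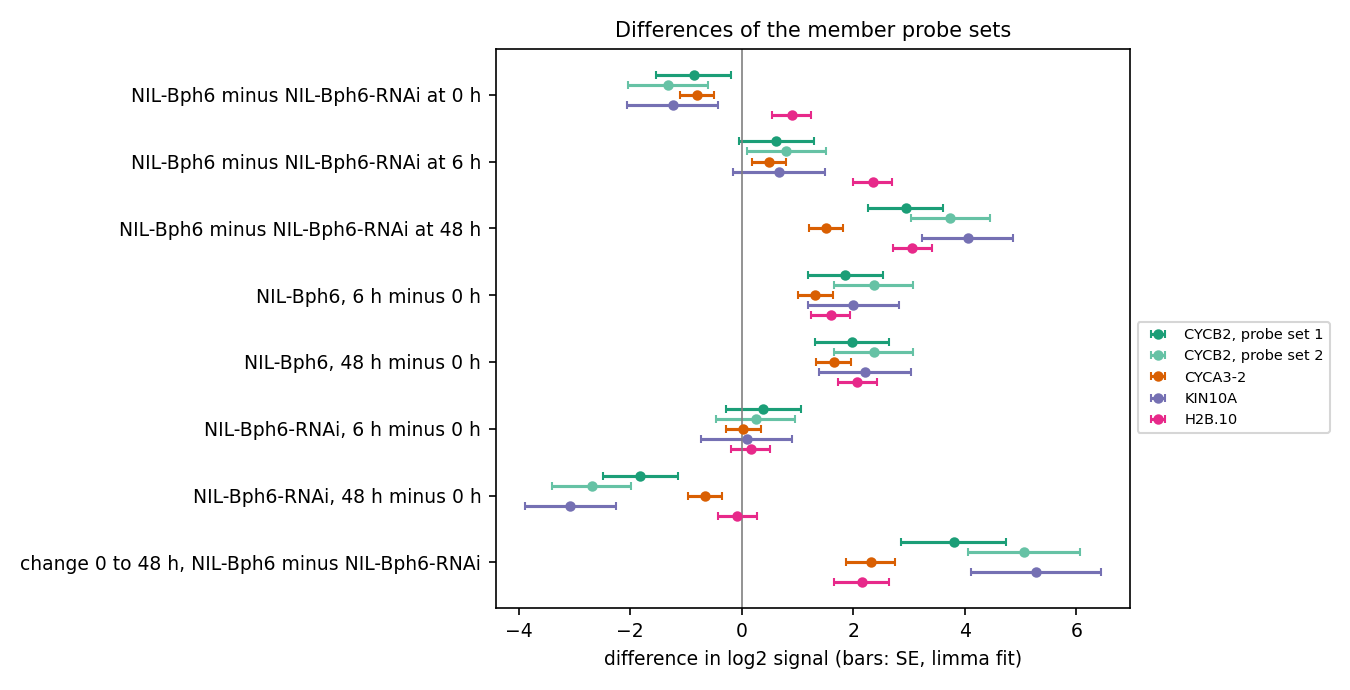
Difference in log2 signal with its SE (horizontal axis) for each member probe set in 8 comparisons (vertical axis), from the fit over 18 arrays. The differences between the lines at 48 h run from 1.51 to 4.05, and the changes of NIL-Bph6-RNAi at 48 h from -3.07 to -0.08.

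In NIL-Bph6 the signals at 6 h exceeded those at 0 h by 2.37 ± 0.71 and 1.86 ± 0.67 for CYCB2, 2.0 ± 0.82 for KIN10A, 1.60 ± 0.35 for H2B.10 and 1.32 ± 0.31 for CYCA3-2. The arrays of the 2 times did not overlap for any of the 5, and those of H2B.10 and CYCA3-2 were called higher, which makes 2 of 5 beside 3.54% of all probe sets called higher and 1.61% lower. Centring each array on its median gave 777 higher and 1044 lower calls over all probe sets in place of 1157 and 525, with the median of all probe sets moved by -0.13. Both member calls ended when NIL-Bph6 0 h replicate 1 or 2 was left out, that of CYCA3-2 also without 6 h replicate 1 and that of H2B.10 also without 6 h replicate 3. The CYCA3-2 change then ranged from 1.09 to 1.47 and that of H2B.10 from 1.38 to 1.95 over the arrays left out.

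At 48 h against 0 h, which shares the 0 h arrays with the preceding comparison, NIL-Bph6 changed by 2.37 ± 0.71 and 1.98 ± 0.67 for CYCB2, 2.21 ± 0.82 for KIN10A, 2.07 ± 0.35 for H2B.10 and 1.65 ± 0.31 for CYCA3-2. Again none of the 5 overlapped between the times. Of these 3 were called higher, H2B.10, CYCA3-2 and CYCB2 probe set 2, beside 8.19% of all probe sets called higher and 7.49% lower. The CYCB2 call ended without replicate 1 or 2 at 0 h or replicate 1 or 3 at 48 h, with changes from 1.92 to 2.70. The H2B.10 change was 1.77 without replicate 1 at 48 h and 2.51 without replicate 3. From 6 h to 48 h the changes lay between 0.00 ± 0.71 for CYCB2 probe set 2 and 0.47 ± 0.35 for H2B.10, all with overlap. There 0 of 5 were called, beside 0.196% of all probe sets called higher and 0.649% lower.

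In NIL-Bph6-RNAi the means at 6 h and 0 h were within 0.39 of each other for every member. The changes were 0.39 ± 0.67 and 0.25 ± 0.71 for CYCB2, 0.03 ± 0.31 for CYCA3-2, 0.09 ± 0.82 for KIN10A and 0.16 ± 0.35 for H2B.10. All overlapped, and 0 of 5 were called, beside 3.70% of all probe sets called higher and 1.61% lower. Without replicate 1 at 0 h all 5 turned negative, at -0.56, -0.45, -0.26, -0.59 and -0.14, and without replicate 3 at 6 h they were 0.95, 0.86, 0.33, 0.68 and 0.24. The direction of these changes thus turned with 1 array.

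After 48 h of feeding, CYCB2 and KIN10A had lost signal in NIL-Bph6-RNAi. KIN10A stood at -3.07 ± 0.82 against 0 h and CYCB2 at -2.69 ± 0.71 and -1.82 ± 0.67, which were called lower. CYCA3-2 at -0.66 ± 0.31 and H2B.10 at -0.08 ± 0.35 were not called. That made 3 of 5 lower and 0 higher, beside 16.7% of all probe sets called lower and 16.7% higher. The 48 h and 0 h arrays overlapped for 4 of 5, all but CYCA3-2. KIN10A ranged from -4.19 without 48 h replicate 2 to -1.99 without 48 h replicate 1, and CYCB2 probe set 2 from -3.50 without 48 h replicate 2 to -2.22 without 0 h replicate 3. CYCA3-2 ranged from -0.95 without 0 h replicate 1, where it was called, to -0.50, and H2B.10 from -0.39 to 0.20, without replicates 1 and 3 at 0 h. The call of CYCB2 probe set 1 ended without replicate 2 or 3 at 0 h or without replicate 1 or 3 at 48 h, and its change ranged from -2.77 without 0 h replicate 1 to -1.29 without 0 h replicate 2.

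From 6 h to 48 h the same line changed by -3.16 ± 0.82 for KIN10A, -2.95 ± 0.71 and -2.21 ± 0.67 for CYCB2, -0.69 ± 0.31 for CYCA3-2 and -0.24 ± 0.35 for H2B.10. This comparison shares the 48 h arrays with the one before, and its times overlapped for KIN10A and H2B.10. KIN10A and CYCB2 probe set 2 were called lower, 2 of 5, beside 4.48% of all probe sets called lower and 3.84% higher. Both calls ended without NIL-Bph6-RNAi 6 h replicate 1 or 2 or 48 h replicate 1 or 3. KIN10A then ranged from -4.28 to -2.08 and CYCB2 probe set 2 from -3.76 to -2.39, and CYCB2 probe set 1 was called without 6 h replicate 3 (-2.77) or 48 h replicate 2 (-2.69). CYCA3-2 ranged from -0.99 without 6 h replicate 3 to -0.39 without 6 h replicate 2.

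The difference between the lines in their change from 0 h to 48 h was 5.28 ± 1.17 for KIN10A, 5.06 ± 1.01 and 3.80 ± 0.94 for CYCB2, 2.31 ± 0.44 for CYCA3-2 and 2.15 ± 0.50 for H2B.10. In the group means it was made of a gain in NIL-Bph6 and a loss in NIL-Bph6-RNAi for KIN10A and CYCB2. The gains of KIN10A and CYCB2 probe set 1 were not called, and the NIL-Bph6-RNAi arrays at 0 h and 48 h overlapped for both genes. For H2B.10 nearly all of the difference was the gain in NIL-Bph6. All 5 were called higher, beside 7.16% of all probe sets called higher and 4.10% lower. Over the arrays left out KIN10A ranged from 4.2 to 6.40, CYCB2 probe set 2 from 4.59 to 5.88, CYCA3-2 from 2.07 to 2.6 and H2B.10 from 1.86 to 2.59. CYCB2 probe set 1 ranged from 3.27 to 4.75, the lowest without NIL-Bph6-RNAi 0 h replicate 2 and no longer called. For the change to 6 h the difference ranged from 1.29 ± 0.44 for CYCA3-2 to 2.12 ± 1.01 for CYCB2 probe set 2, and 0 of 5 were called, beside 0% of all probe sets called higher and 0.00612% lower. CYCB2 probe set 1 stood at 1.48 ± 0.94 there, and at 0.91 without NIL-Bph6-RNAi 6 h replicate 3 and 2.43 without its 0 h replicate 1. For the change from 6 h to 48 h it ranged from 0.71 ± 0.50 for H2B.10 to 3.38 ± 1.17 for KIN10A. Here too 0 of 5 were called, beside 0.156% of all probe sets called higher and 0.26% lower, and KIN10A ranged from 2.30 without NIL-Bph6-RNAi 48 h replicate 1 to 4.49 without replicate 2, where it was called. H2B.10 ranged from 0.41 to 1.15, without NIL-Bph6 48 h replicates 1 and 3.

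**Figure D3:**
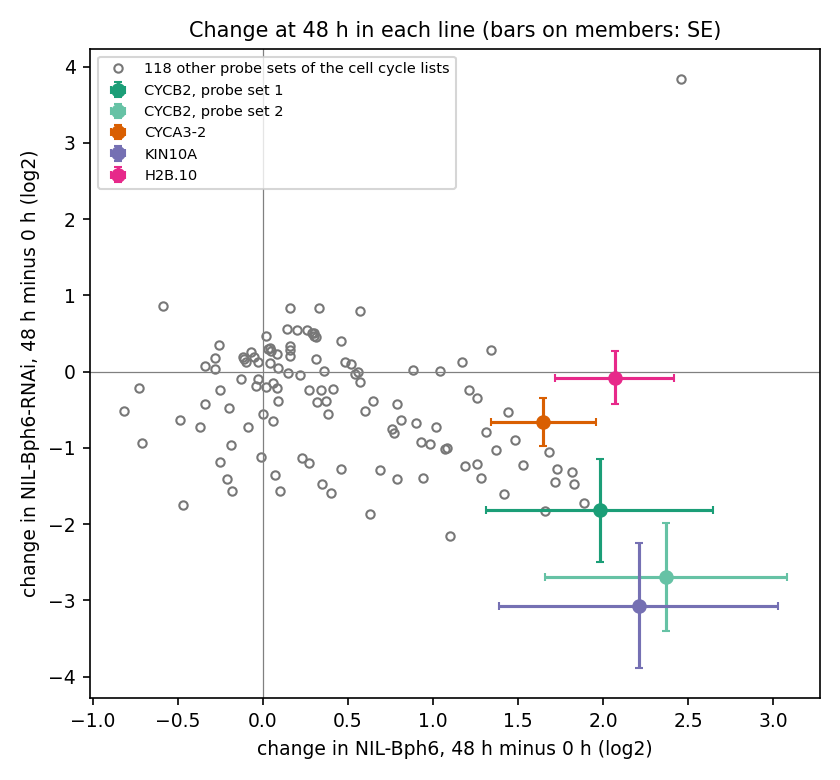
Change in log2 signal from 0 h to 48 h in NIL-Bph6 (horizontal axis) and in NIL-Bph6-RNAi (vertical axis), which share no arrays, for the 5 member probe sets with SE bars and for 118 other probe sets of cell cycle genes (open circles). KIN10A lies at 2.21 and -3.07, H2B.10 at 2.07 and -0.08, and the open circle at the upper right is 1 of the CDKE-1 probe sets, at 2.46 and 3.84.

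The members differed in how they varied among replicates. After the group means were removed, CYCB2 probe set 2 and KIN10A still correlated over the 18 arrays at r = 0.892, and CYCB2 probe set 1 and CYCA3-2 at r = 0.744. KIN10A and CYCA3-2 correlated within groups at r = 0.481. H2B.10 moved less with the others, with r within groups between 0.249 and 0.409. These correlations are across arrays that share their labelling and scaling and are given as a description. For the brighter CYCB2 probe set, the correlation within groups with the 3′ to 5′ difference was -0.07, with the mean of the leaf markers -0.33, and with the mean of 11 growth-regulating factor probe sets 0.903. With that last mean CYCB2 probe set 1 correlated at 0.894, CYCA3-2 at 0.712, KIN10A at 0.706 and H2B.10 at 0.45.

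Growth-regulating factors are transcription factors of growing leaves, and their mean signal by array is given beside the members. It was 6.39, 6.78 and 7.0 in NIL-Bph6 at 0 h, 8.03, 7.73 and 7.94 at 6 h and 8.31, 7.82 and 8.03 at 48 h. In NIL-Bph6-RNAi it was 6.35, 7.17 and 7.15 at 0 h, 7.06, 7.74 and 6.73 at 6 h and 6.27, 6.69 and 6.05 at 48 h. The replicates that were low or high for CYCB2 and KIN10A in the second line were low or high here as well. Of the 11 probe sets, all of which passed the filter, 6 rose and 0 fell in NIL-Bph6 at 48 h, and 0 rose and 2 fell in NIL-Bph6-RNAi. These are 54.5% higher beside 8.19% of all probe sets in the first line, and 18.2% lower beside 16.7% in the second, a share near the background. Among those that rose was GRF6 (LOC4333990), at 1.99 ± 0.38 (limma adjusted p = 0.00204), which fell in NIL-Bph6-RNAi at -1.43 ± 0.38 (limma adjusted p = 0.00834). The mean of the 8 leaf marker probe sets went from 12.31 ± 0.11 (SD, n = 3) to 11.79 ± 0.15 in NIL-Bph6 and from 12.34 ± 0.05 to 12.04 ± 0.05 in NIL-Bph6-RNAi between 0 h and 48 h. Whether a different share of growing tissue in the samples had a part in the members' values was not tested.

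**Figure D4:**
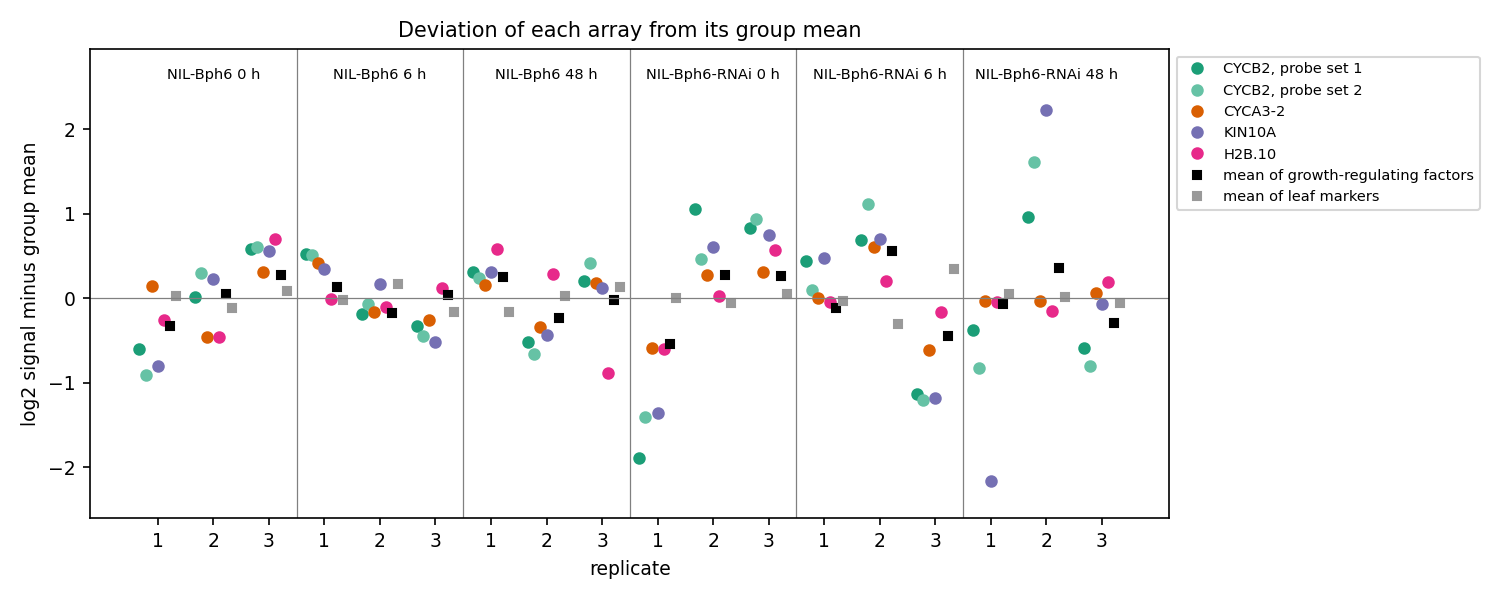
Log2 signal minus its group mean (vertical axis) for each of the 18 arrays (horizontal axis, by group and replicate), for the member probe sets (circles) and the means of 11 growth-regulating factor and 8 leaf marker probe sets (squares). KIN10A has the widest spread, in NIL-Bph6-RNAi at 48 h, where its values were 2.97, 7.36 and 5.07.

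Other genes of the division cycle were taken from lists of gene names, 118 tested probe sets of 103 genes without the members. Between the lines at 48 h 52 of the 118 were higher in NIL-Bph6 and 1 was lower, with a median difference of 0.55 beside 0.00 over all probe sets. That is 44.1% higher and 0.847% lower, beside 8.81% and 4.81% of all probe sets. Against 0 h 29 rose and 1 fell in NIL-Bph6 with a median of 0.31, whereas 11 rose and 38 fell in NIL-Bph6-RNAi with a median of -0.36. As shares these are 24.6% risen beside 8.19% of all probe sets in NIL-Bph6, and 9.32% risen and 32.2% fallen beside 16.7% each in NIL-Bph6-RNAi. Of the 29 that rose in the first line, 11 fell in the second, which is 37.9% of those that rose and 28.9% of those that fell. These are near the 32.2% fallen and 24.6% risen among all 118, so no link between the lines is read from them. The joint share over all probe sets is not given. The NIL-Bph6 count of 30 changed probe sets dropped to 11 and 12 without 0 h replicates 1 and 2, to 15 without 48 h replicate 1 and to 12 without 48 h replicate 3. The 48 h changes of the lines themselves differed for 43 probe sets in the direction of NIL-Bph6 and for 1 in the other. These are 36.4% and 0.847% of the 118, beside 7.16% and 4.1% of all probe sets. Without NIL-Bph6-RNAi 0 h replicate 2 the changes differed for 27 in all.

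At 0 h and at 6 h 0 of the 118 differed between the lines by limma. Of all probe sets, 0.863% were called higher and 0.545% lower at 0 h, and 0.315% and 0.545% at 6 h. Limma's unadjusted p was under 0.05 for 12 and 7 of the 118, and that share of all probe sets is not given. After 6 h 7 rose and 0 fell in NIL-Bph6, which is 5.93% risen beside 3.54% of all probe sets. In NIL-Bph6-RNAi 4 rose and 0 fell, 3.39% risen beside 3.7%, a share near the background. With median centring the NIL-Bph6 counts were 2 and 1. Without NIL-Bph6 0 h replicate 1 or 2 or 6 h replicate 3 they were 2 and 0. Leaving out 6 h replicate 1 or 2 gave 3 and 0. The NIL-Bph6-RNAi counts were 1 and 0 without 6 h replicate 3. They were 2 and 0 without 6 h replicate 1 or any replicate at 0 h. From 6 h to 48 h 1 rose and 0 fell in NIL-Bph6, 0.847% risen beside 0.196% of all probe sets. In NIL-Bph6-RNAi 1 rose and 17 fell, 0.847% and 14.4% beside 3.84% and 4.48%. The NIL-Bph6-RNAi counts moved with every array left out. They ran from 2 and 43 without 6 h replicate 3 to 1 and 3 without 6 h replicate 2 or 48 h replicate 3.

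Among the A- and B-type cyclins, 3 of 4 were higher in NIL-Bph6 at 48 h, 3 rose in that line and 3 fell in NIL-Bph6-RNAi, with 0 in the opposite directions. CYCB1-1 (LOC4327547), a mitotic cyclin, rose by 1.89 ± 0.49 (limma adjusted p = 0.0142) and stood 2.64 ± 0.49 higher between the lines (limma adjusted p = 0.0025). CYCB2-1 (LOC4336670), the other B2 cyclin in the table, rose by 1.42 ± 0.41 (limma adjusted p = 0.026) and changed by -1.61 ± 0.41 in NIL-Bph6-RNAi (limma adjusted p = 0.006). CYCA2-1 (LOC4352280) rose by 1.53 ± 0.45 (limma adjusted p = 0.0298) and was 2.11 ± 0.45 higher between the lines. The calls of these 3 rises ended without NIL-Bph6 0 h replicate 1, at adjusted p = 0.0725 for CYCB1-1, 0.0968 for CYCB2-1 and 0.111 for CYCA2-1.

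The remaining cyclins and their kinases were more mixed, as 13 of 39 were higher and 1 was lower in NIL-Bph6 at 48 h. That is 33.3% and 2.56%, beside 8.81% and 4.81% of all probe sets. In NIL-Bph6 10 rose and 0 fell, and in NIL-Bph6-RNAi 10 rose and 9 fell. In NIL-Bph6 25.6% thus rose, beside 8.19% of all probe sets. In NIL-Bph6-RNAi 25.6% rose and 23.1% fell, beside 16.7% each. The D-type cyclins CYCD3-2 (LOC4346394) and CYCD3-1 (LOC4340499), which act early in the cycle, were 2.86 ± 0.47 (limma adjusted p = 0.0013) and 2.0 ± 0.31 (limma adjusted p = 0.000834) higher. The P-type cyclin CYCP4-1 (LOC4349405) was higher by 2.0 ± 0.37 as well. CDKB2-1 (LOC4346016), a kinase found in plants that acts at mitosis, rose in NIL-Bph6 by 1.68 ± 0.46 (limma adjusted p = 0.0195, and 0.106 without 0 h replicate 1). CYCD4-1 (LOC4347313) rose by 1.44 ± 0.30 (limma adjusted p = 0.00369).

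Some of this list ran against the members. CYCD5-3 (LOC4331985) was lower in NIL-Bph6 at 48 h at -0.58 ± 0.16 (limma adjusted p = 0.0267, and 0.11 without NIL-Bph6-RNAi 48 h replicate 1). It rose by 0.84 ± 0.16 in NIL-Bph6-RNAi, as did 1 CDKG-1 (LOC4329899) probe set by 0.84 ± 0.14, the other standing at 0.35 ± 0.56. One probe set of CDKE-1 (LOC4349519), a kinase of the Mediator complex of transcription, rose by 2.46 ± 0.23 in NIL-Bph6 and by 3.84 ± 0.23 in NIL-Bph6-RNAi (limma adjusted p = 1.53e-05 and 4.49e-08). The other CDKE-1 probe set disagreed, with changes of 0.16 ± 0.10 and 0.20 ± 0.10.

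Of 8 probe sets for kinase inhibitors, RBR and MYB3R genes, 2 were higher in NIL-Bph6 at 48 h and 0 lower. The share is 25.0%, beside 8.81% of all probe sets. RBR1 (LOC4346176), a rice retinoblastoma-related gene, of a family that restrains entry into DNA synthesis, was 2.41 ± 0.35 higher (limma adjusted p = 0.000608). RBR2 (LOC4350648), another such gene, differed by 0.05 ± 0.15 (limma adjusted p = 0.888). KRP5 (LOC4331554), an inhibitor of cyclin-dependent kinases, was 1.08 ± 0.15 higher (limma adjusted p = 0.000361) and rose by 1.34 ± 0.15 in NIL-Bph6. In NIL-Bph6-RNAi 0 rose and 2 fell, namely RBR1 at -1.21 ± 0.35 (limma adjusted p = 0.0137) and KRP6 (LOC4347280) at -1.13 ± 0.32 (limma adjusted p = 0.0109). Those 2 are 25.0% of the list, beside 16.7% of all probe sets called lower. Leaving out NIL-Bph6-RNAi 48 h replicate 1 ended the first at 0.0695, and leaving out 48 h replicate 3 ended the second at 0.0718. Another KRP6 probe set stood at -0.56 ± 0.88.

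The histone list held 5 probe sets besides H2B.10, since few histone genes carry a name in the table. Of these 3 were higher in NIL-Bph6 at 48 h and 0 lower, with a median of 0.62. The 3 are 60.0% of the list, beside 8.81% of all probe sets. CenH3 (LOC4339159), the histone that marks centromeres, was 1.43 ± 0.26 higher (limma adjusted p = 0.00247). H2B.7 (LOC4324500) was 1.07 ± 0.16 higher (limma adjusted p = 0.000703) and H2B.11 (LOC4327384) 0.62 ± 0.10 (limma adjusted p = 0.000935). H2B.7, H2B.6 (LOC4324502) and H2B.5 (LOC4324504) lie 6, 9 and 11 genes from H2B.10 in the RefSeq order, and H2B.6 and H2B.5 differed by 0.42 ± 0.15 and 0.42 ± 0.14, which did not pass. H2B genes are near-identical copies, so signal may be shared between their probe sets, and how far was not tested. The 3.06 of H2B.10 thus stood beside 0.42 to 1.07 for the other H2B probe sets, without a test of the gap.

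Of 33 kinesin probe sets besides KIN10A, 19 were higher in NIL-Bph6 at 48 h and 0 lower, with a median of 1.06. That is 57.6%, beside 8.81% of all probe sets. In NIL-Bph6-RNAi 19 fell and 0 rose with a median of -0.94, and in NIL-Bph6 6 rose and 1, KIN14L (LOC4340497) at -0.82 ± 0.17 (limma adjusted p = 0.00305), fell. These are 57.6% fallen beside 16.7% of all probe sets in NIL-Bph6-RNAi. In NIL-Bph6 they are 18.2% risen beside 8.19%, and 3.03% fallen beside 7.49%. KIN10C (LOC4339007), of the same subfamily as KIN10A, was 2.57 ± 0.58 higher between the lines at 48 h (limma adjusted p = 0.00814). KIN14E (LOC4331382) was 2.36 ± 0.55 higher (limma adjusted p = 0.00979) and KIN12C (LOC4333349) 2.21 ± 0.51 (limma adjusted p = 0.00908, and 0.0502 without NIL-Bph6-RNAi 48 h replicate 3). In NIL-Bph6-RNAi KIN14Q (LOC4352456) changed by -1.87 ± 0.39 (limma adjusted p = 0.00163), KIN14A (LOC4327702) by -1.75 ± 0.27 and KIN14F (LOC4332578) by -1.59 ± 0.35.

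For DNA replication 12 of 29 probe sets were higher in NIL-Bph6 at 48 h and 0 lower, with a median of 0.53. The share is 41.4%, beside 8.81% of all probe sets. ORC1 (LOC4340349), which marks replication origins, was 2.81 ± 0.64 higher (limma adjusted p = 0.0084). RPA70b (LOC4332052), a subunit of the protein that covers single-stranded DNA, was 2.48 ± 0.45 higher (limma adjusted p = 0.00213) and MCM3 (LOC4339099), part of the replicative helicase, 2.23 ± 0.43 (limma adjusted p = 0.00293). Within NIL-Bph6 4 rose and 0 fell, among them MCM2 (LOC4350526) by 1.31 ± 0.37 (limma adjusted p = 0.0239, and 0.111 without 0 h replicate 2). The 4 are 13.8% of the list, beside 8.19% of all probe sets. In NIL-Bph6-RNAi 1 rose, RPA14 (LOC4327706) at 0.56 ± 0.14, and 4 fell, which is 13.8% of the list beside 16.7% of all probe sets called lower.

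**Figure D5:**
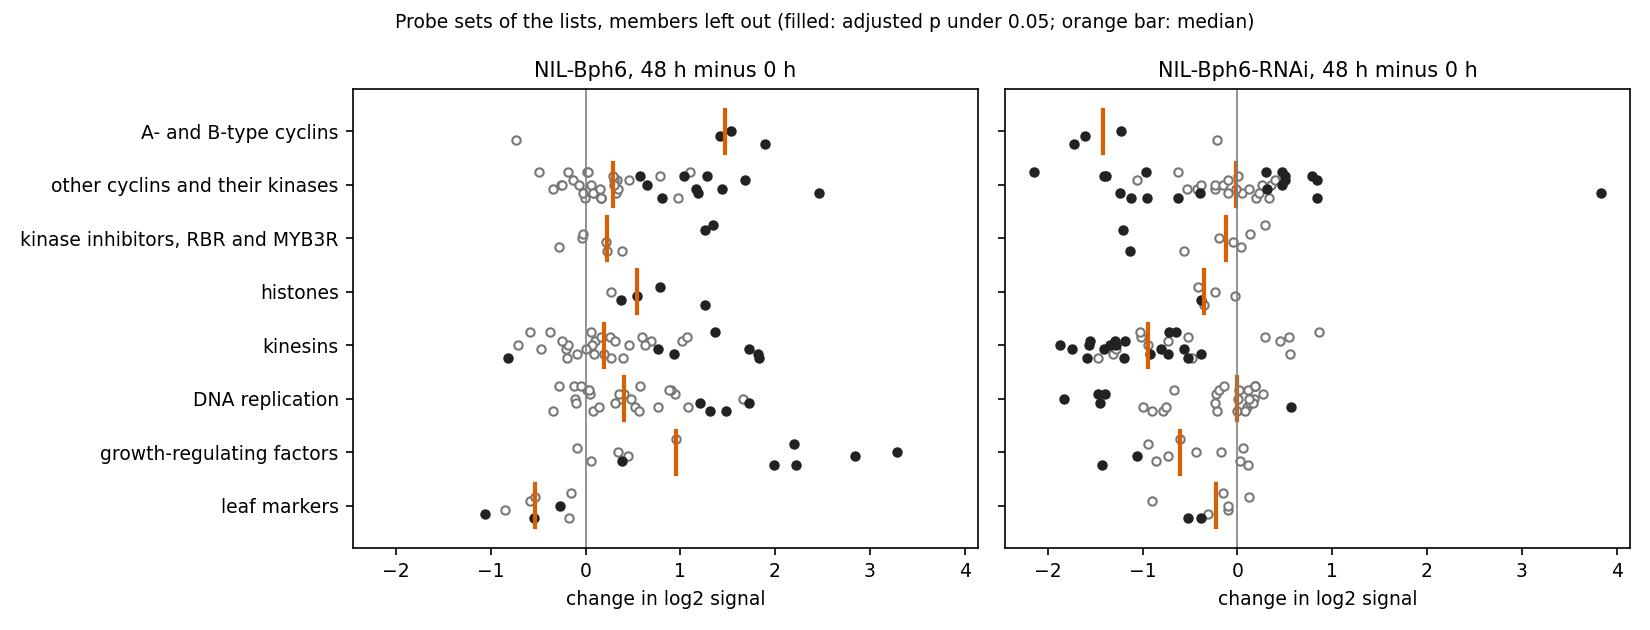
Change in log2 signal from 0 h to 48 h (horizontal axis) in NIL-Bph6 (left) and NIL-Bph6-RNAi (right) for the probe sets of 8 gene lists without the members (vertical axis), filled where the adjusted p was under 0.05 and with the median as an orange bar. The kinesin median is 0.20 on the left and -0.94 on the right.

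The genes with a name whose signal ran most like a member were ranked by their correlation over all 18 arrays, as a description. Probe sets without a named gene were not listed, and over all probe sets the highest r was 0.987 for CYCB2, 0.974 for CYCA3-2, 0.979 for KIN10A and 0.930 for H2B.10. For CYCB2 these were CYCB1-1 at r = 0.987, CYCA2-1 at 0.982, CYCB2-1 at 0.966, the zinc finger gene OsC3H23 (LOC4332723) at 0.964 and KIN10C at 0.951. With the group means removed, CYCB1-1 still correlated with it at 0.973. KIN10A shared 4 of these 5 genes, led by OsC3H23 at 0.957 and KIN10C at 0.947, and had ORC1 at 0.941 besides. Of the named genes CYCA3-2 was closest to BC1L2 (LOC4333115) at 0.931, the TCP transcription factor gene PCF5 (LOC4325252) at 0.925 and CYCD4-2 (LOC4345844) at 0.922, followed by KIN12C at 0.918 and RPA70b at 0.916. For H2B.10 the first of the named genes was the growth-regulating factor gene GRF1 (LOC4330903) at 0.882, then NINJA1 (LOC4339584) at 0.869, ORC2 (LOC4331860) at 0.868, AC3 (LOC4334702) at 0.850 and grf2 (LOC4330436, also listed as GRF4) at 0.849. Within groups NINJA1 correlated with H2B.10 at only 0.166.

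The number of probe sets that correlated with a member above r = 0.9 was 241 for CYCB2, 131 for KIN10A, 67 for CYCA3-2 and 4 for H2B.10. Of the 118 cell cycle probe sets these included 17, 9, 4 and 0. Over the 118 the median r was 0.528 with CYCB2, 0.545 with KIN10A, 0.435 with CYCA3-2 and 0.390 with H2B.10, beside -0.025, -0.013, -0.008 and 0.056 over all probe sets.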

How the data were processed

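The authors deposited log2 MAS5 signals, per the submitters' processing notes, which give no MAS5 version. Log base and scaling were read from the values: with base 2, the linear mean of each array, trimmed by 2%, was between 500.067 and 500.079, and the lowest log2 value was 0. RNA was extracted with TRIZOL and labelled with a 3′ IVT Express kit, per the labels' protocols. Precision is limited by the small number of arrays.

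Control probe sets (123) were left out, and 32684 of the other 57258 passed a filter that asked for 3 or more arrays above the overall median, 5.779. In R 4.3.3, limma 3.58.1 fitted 6 group means over 18 arrays (lmFit, eBayes with an intensity trend) for 12 comparisons, with Benjamini-Hochberg adjustment over the kept probe sets in each. The script was tested on simulated data. Other steps ran in Python 3.11.15 with pandas 2.3.3, numpy 2.4.6 and, for figures, matplotlib 3.10.9. The platform annotation named a single gene for 22436 probe sets, more than 1 for 95 and no gene for 34850. Its 17905 genes were all in the RefSeq table, 2454 of them with a name.

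The members and lists were chosen with earlier results of these data known. Lists were matched on gene names, since the table used holds no descriptions, and those for mitosis and cytokinesis and for pollen matched 0 probe sets. From each list, in each direction, up to 3 called probe sets with the largest change from 0 h or line difference and no overlap between the groups were named, and not all are printed. For each member the 5 named genes with the highest correlation were given. GRF6, H2B.5, HOS58, HOS59, CAB2R, OSH1 and the second probe sets of CDKE-1, CDKG-1 and KRP6 fall outside these rules and were named after their values were seen. Alternatives were quantile and median scaling, other filters on dim probe sets, no trend, the compared groups alone, a replicate block, an offset before the logarithm, array weights, a 3′ to 5′ covariate and leaving out each array. Same-numbered replicates did not deviate together: of 45 pairs 3 correlated above 0.1, and the range was -0.254 to 0.285. Protein and promoter sequences were not used here.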

Additional observations from a re-analysis of the deposited data

Results flagged for a closer look

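Changes from 0 h to 48 h that differed between the lines are given as NIL-Bph6 minus NIL-Bph6-RNAi in log2 signal, from the interaction term of limma's fit. For the members, chosen on these data, they are a description. The members were KIN10A at 5.28, CYCB2 at 5.06 and 3.80 with its probe sets 2 and 1, CYCA3-2 at 2.31 and H2B.10 at 2.15.

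Among the other named genes the differences for cyclins and their kinases were 3.61 for CYCB1-1, 3.24 for CYCD3-2, 3.03 for CYCB2-1, 2.76 for CYCA2-1, 2.74 for CDKB2-1, 2.67 for CYCP4-1, 2.44 for CYCD3-1, 2.20 for CYCP2-1 and 1.97 for CYCD4-1. Limma's adjusted p lay between 0.0052 for CYCD3-1 and 0.0147 for CDKB2-1. For kinesins they were 3.30 for KIN10C, 3.13 for KIN12C, 3.01 for KIN14E, 2.50 for KIN14Q, 1.98 for KIN14F and 1.28 for KIN14A, the last with a limma adjusted p of 0.0377 and changes of -0.47 and -1.75 in the separate lines. For DNA replication they were 3.49 for ORC1, 3.17 for RPA70b, 2.38 for MCM3, 2.34 for MCM4, 2.10 for MCM2 and 1.82 for RPA32. RBR1 differed by 2.47, CenH3 by 1.61, H2B.7 by 1.21, KRP5 by 1.05 and H2B.11 by 0.75.

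CDKE-1 was the exception, with -1.39 (limma adjusted p = 0.0137), from gains of 2.46 and 3.84 in NIL-Bph6 and the RNAi line, while a second CDKE-1 probe set stood at -0.05.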

How the results depend on the processing

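No member difference that was called turned its sign under any alternative. Of 1026 recomputed member differences 971 kept their side of the threshold, 21 passed it newly and 34 lost the call, as did 126 of 979 for the other named genes. The cell cycle counts stayed within 1.5 times in 161 of 210 cases and the counts over all probe sets in 126 of 210. Where not given here, the cause was not tested. With array weights these member differences passed newly: CYCB2 probe set 1 in NIL-Bph6 at 6 h (2.32) and 48 h (2.56) against 0 h and in NIL-Bph6-RNAi from 6 h to 48 h (-2.34), probe set 2 between the lines at 0 h (-2.09) and in NIL-Bph6 at 6 h (3.06), CYCA3-2 between the lines at 0 h (-0.69), KIN10A between the lines at 0 h (-1.91) and in NIL-Bph6 at 6 h (2.59) and 48 h (2.93), and the 6 h interaction of H2B.10 (1.73). With only the compared groups fitted, which leaves fewer arrays for the spread, CYCB2 in NIL-Bph6 passed at 6 h (1.86 and 2.37) and probe set 1 at 48 h (1.98), as did KIN10A (2.0 and 2.21). In NIL-Bph6-RNAi that setting ended the calls of KIN10A at 48 h against 0 h (-3.07) and 6 h (-3.16) and of CYCB2 probe set 2 against 6 h (-2.95). An offset before the logarithm gave 1.85 for CYCB2 probe set 1 and 2.12 for KIN10A in NIL-Bph6 at 48 h, now past the threshold. The loss of CYCB2 probe set 1 at 48 h in NIL-Bph6-RNAi was no longer called with no filter, no trend, the compared groups alone or a replicate block (-1.82 in each), with array weights (-1.69) or with the 3′ to 5′ covariate (-1.94). Without a trend the calls of CYCB2 probe set 2 in NIL-Bph6 at 48 h (2.37) and KIN10A from 6 h to 48 h in NIL-Bph6-RNAi (-3.16) ended.

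Leaving out 1 array at a time gave, in NIL-Bph6-RNAi, -2.77 to -1.29 (48 h against 0 h) and -2.77 to -1.86 (48 h against 6 h) for CYCB2 probe set 1, -3.76 to -2.39 for probe set 2 and -4.28 to -2.08 for KIN10A (48 h against 6 h), and -0.95 to -0.50 for CYCA3-2 (48 h against 0 h). In NIL-Bph6 it gave 1.92 to 2.70 for CYCB2 probe set 2 at 48 h, and at 6 h 1.09 to 1.47 for CYCA3-2 and 1.38 to 1.95 for H2B.10. The interactions ranged from 3.27 to 4.75 for CYCB2 probe set 1 (0 h to 48 h) and from 2.30 to 4.49 for KIN10A (6 h to 48 h). Cell cycle counts ranged from 2 to 7 and 11 to 30 in NIL-Bph6 at 6 h and 48 h and 0 to 1 from 6 h to 48 h, from 1 to 5 and 4 to 45 in NIL-Bph6-RNAi at 6 h and from 6 h to 48 h, and from 27 to 50 and 0 to 10 for the interactions from 0 h and 6 h to 48 h.

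For NIL-Bph6 at 6 h the cell cycle count of 7 became 3 with median centring, 4 with no filter, no trend, the replicate block or the covariate, 14 with the compared groups alone and 51 with array weights. Array weights also gave 19 between the lines at 0 h, 56 in NIL-Bph6 at 48 h, 12 at 6 h and 39 from 6 h to 48 h in NIL-Bph6-RNAi, and 2 and 9 for the interactions to 6 h and from 6 h to 48 h. From 6 h to 48 h in NIL-Bph6 the count was 0 with median centring, no trend, the replicate block or the compared groups alone, and in NIL-Bph6-RNAi it was 4 with the last. At 6 h in NIL-Bph6-RNAi it was 2 with median centring or the covariate. The covariate left 29 of the interactions from 0 h to 48 h, and the stricter filter or the offset gave 1 from 6 h to 48 h. The replicate block, which changed no other member call, was fitted although same-numbered arrays were not seen to be paired.

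Over all probe sets, array weights raised the calls from 460 to 5257 (lines at 0 h), 1682 to 8601 and 5125 to 11393 (NIL-Bph6 at 6 h and 48 h) and 3680 to 6644 (interaction to 48 h). These comparisons all use NIL-Bph6 at 0 h, where replicate 1 had the weight of 8.15. Of comparisons without that group, the lines at 6 h went from 281 to 729 and NIL-Bph6-RNAi at 6 h from 1736 to 3947. The covariate lowered the calls between the lines at 0 h to 177, NIL-Bph6-RNAi at 6 h to 1086 and the interaction to 48 h to 1799. The compared groups alone gave 289 at 0 h, 2808 in place of 4450 between the lines at 48 h and 538 in place of 2718 from 6 h to 48 h in NIL-Bph6-RNAi. From 6 h to 48 h in NIL-Bph6, 276 calls became 11 with no trend, 20 with the compared groups alone, 22 with median centring, 32 with the replicate block, 50 with the covariate, 75 with no filter, 563 with a stricter filter and 747 with array weights. The interaction to 6 h had 2 calls, and 0 to 1066 over the alternatives, and that from 6 h to 48 h had 136, and 0 (without NIL-Bph6 6 h replicate 3, among others) to 1045 (array weights). Leaving out 1 array moved these counts by over 1.5 times down to as few as 225 (lines at 0 h, up to 852), 179 and 2585 (lines at 6 h and 48 h), 792 and 3350 (NIL-Bph6 at 6 h and 48 h), 8 (NIL-Bph6 from 6 h to 48 h, up to 645), 669 and 747 (NIL-Bph6-RNAi at 6 h and from 6 h to 48 h) and 1648 (interaction to 48 h), and the shares of all probe sets called rest on these counts. Median centring changed higher and lower calls from 103 and 178 to 73 and 216 between the lines at 6 h, from 64 and 212 to 20 and 2 in NIL-Bph6 from 6 h to 48 h, and from 51 and 85 to 31 and 25 for the interaction from 6 h to 48 h. Signals under the overall median, as in NIL-Bph6-RNAi at 48 h for CYCB2 and KIN10A, limit those differences, and 3 arrays a group limit them all.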
